A study of Mus musculus with 24 samples.

Results

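Infant liver 48 h after irradiation was compared with infant liver at 0 h in B6C3F1 mice, the hybrid offspring of C57BL/6 and C3H parents. The livers of 8 infant mice were read on 8 of the 24 arrays of the study, 4 at 0 h and 4 at 48 h, each group holding 2 males and 2 females that the labels name as separate animals. All infants were 1 week old at 0 h and the study gave 4 Gy of 137Cs gamma rays at 0.57 Gy/min. Whether the mice of 0 h were exposed is not settled, because their labels name irradiation and the protocol mentions sham exposure; 0 h therefore stands only for the reference time. The other arrays came from 4 infants at 24 h and from adults of 7 weeks at 0, 24 and 48 h, 4 mice at each time, and the adult 0 h and 48 h arrays are used here to compare the 48 h change between ages. Infants grow over 48 h and no unirradiated infants of the age reached at 48 h were analysed here, so growth and irradiation cannot be told apart in this comparison.

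The liver makes blood before birth and for a short time after it, so an infant liver holds red cell precursors, granulocyte precursors, developing B cells and megakaryocytes among its hepatocytes, and all of these dividing precursors are known to be sensitive to ionising radiation. DNA damage stabilises the transcription factor p53, which switches on genes of cell cycle arrest, cell death and repair. The liver also sets the level of iron in the body through hepcidin, a hormone that is raised by iron through BMP6 and SMAD signalling and by inflammation through interleukin 6 and STAT3, and lowered by signals from red cell precursors. In the weeks after birth hepatocytes gain the enzymes of nitrogen, drug and bile acid metabolism.

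The 75th percentile of the processed signal ran from 179 to 321 intensity units over the 8 arrays, and a share of 44.8% to 52% of probes was marked well above background. Arrays of the same time and sex correlated at 0.989 to 0.993, and the X- and Y-linked genes examined matched the labelled sex on each array. The infant males at 0 h and 48 h lay on slide 1 and the infant females at both times on slide 2. The comparison of 48 h with 0 h therefore ran within a slide in each sex, and sex and slide cannot be told apart among these arrays. All 4 infant arrays of 24 h, of both sexes, lay on slide 1, so the changes from 0 h to 24 h given below cross slides in females. Each level below is the log2 of the processed signal after the 75th percentile of its array was subtracted, and each change is the 48 h mean minus the 0 h mean on that scale, averaged over the sexes, with its standard error from limma.

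Most of what changed strongly in infant liver at 48 h fell. With limma 8223 of 23115 genes (35.6%) had an adjusted p under 0.05, and such genes are called passing here; 5705 of them (24.7% of all genes) were higher at 48 h and 2518 (10.9%) lower. At least 2-fold changes went the other way, with 332 passing genes higher and 735 lower, as did at least 8-fold changes, with 4 higher and 106 lower. These counts use the fitted change. In 151 of the 2518 lower genes no array of 48 h was well above background, so the depth of their fall is not exact. The median change over all genes was 0.11 on the log2 scale, and 69.4% of the genes that passed were higher, a share that was 57.2% after median scaling and 57.6% after quantile normalization. Within slide 1, which held the males, 5318 genes passed, and within slide 2, which held the females, 839, of which 43.1% were higher. In 6593 genes (28.5%) the 4 arrays of 48 h did not overlap the 4 of 0 h. In adults 2942 genes (12.7%) passed at 48 h.

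Markers of blood cell lines were lower at 48 h while markers of hepatocytes overlapped between the times. The mean level of 8 hepatocyte identity genes was 8.92 to 9.24 on the arrays of 0 h and 8.99 to 9.31 on those of 48 h, and 7 of the 8 did not pass. Albumin, Alb, the main plasma protein, stood at 10.43, 9.89, 9.48 and 9.86 at 0 h and at 9.60, 10.03, 10.08 and 9.79 at 48 h, a change of -0.04 ± 0.17 (adjusted p 0.883). The mean level of 55 red cell line genes ran from 2.43 to 3.05 at 0 h and from 0.09 to 0.14 at 48 h, and 15 of the 55 were well above background on no array of 48 h. For 29 granulocyte genes the mean level was 2.60 to 3.11 at 0 h and -0.18 to 0.38 at 48 h. For 21 B cell genes it was -0.19 to 0.20 at 0 h and -2.98 to -2.64 at 48 h. In none of these blood lists did an array of 48 h reach the lowest array of 0 h. In whole liver, fewer cells of a type and less RNA per cell cannot be told apart.

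**Figure D1:**
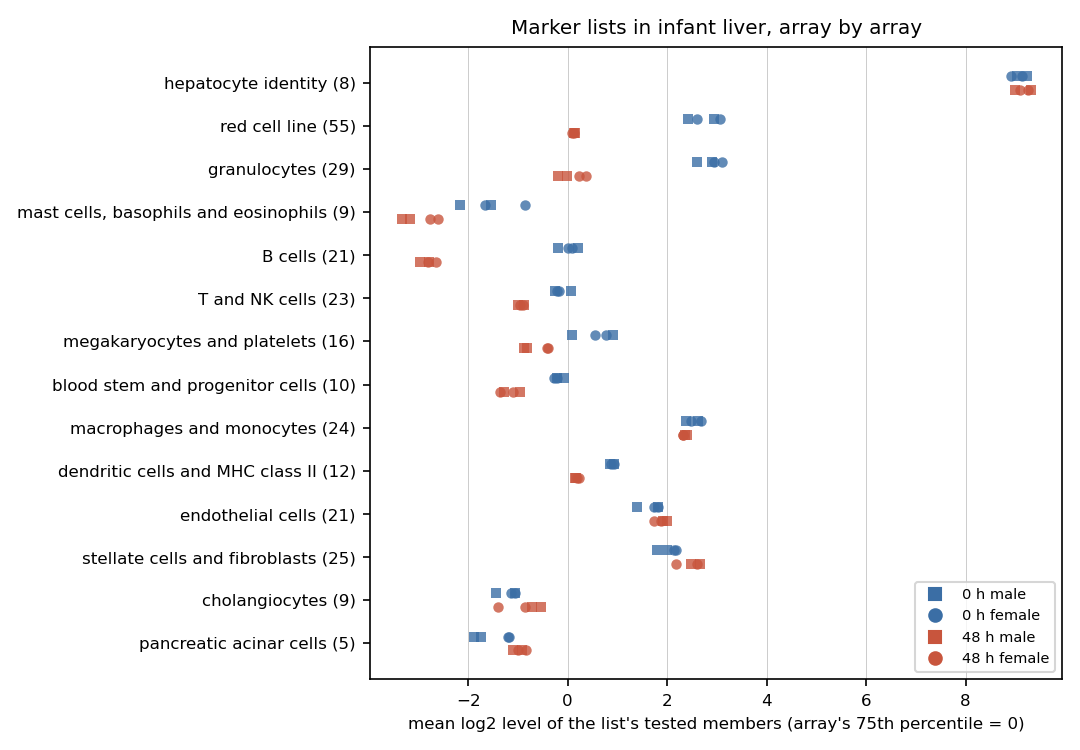
Mean log2 level (after subtraction of the 75th percentile of the array) of the tested members of each cell type list on each infant array, 0 h and 48 h, with males and females marked separately. The points of 48 h lie below all points of 0 h in the red cell, granulocyte and B cell lists, while the hepatocyte points of both times overlap between 8.92 and 9.31.

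Red cell genes fell together across most of the line. Of 55 tested members 41 passed lower, against 10.9% of all genes, and 3 passed higher. The median change was -2.60, against 0.11 over all genes; with 15 members at their bounds it was -1.99, and after normexp background correction -1.32. Gata1, the master transcription factor of the red cell line, stood at 2.46, 1.41, 1.93 and 1.64 at 0 h and at -2.29, -2.66, -1.52 and -1.82 at 48 h. Every array of 48 h lay below every array of 0 h, and the fall was 15.2-fold (log2 change -3.93 ± 0.23, adjusted p 5.01e-08). Klf1, which drives globin transcription, fell less, by 1.55 ± 0.17 on the log2 scale (2.93-fold, adjusted p 1.49e-05), from 0.76 to 1.5 at 0 h to -0.66 to -0.14 at 48 h. Of 7 transcription factors of the line 6 passed lower, among them Nfe2 (10.6-fold) and Gfi1b, which was well above background on part of the arrays of 48 h. Zfpm1, the partner of Gata1, did not pass (-0.11, adjusted p 0.493).

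Genes of the red cell membrane and its skeleton fell in most members. Of 18 tested 15 passed lower and none higher. Slc4a1, the anion exchanger band 3, stood at 5.27, 4.47, 5.18 and 4.57 at 0 h and at -3.17, -3.31, -2.93 and -3.85 at 48 h, when 2 of 4 arrays still measured it; the fall was 291-fold (log2 change -8.18 ± 0.41, adjusted p 1.17e-08). Rhd, the Rh blood group protein, stood at 2.97, 2.04, 3.24 and 2.55 at 0 h and was not well above background on any array of 48 h. Its fall was at least 85.1-fold (adjusted p 6.18e-08), where "at least" means that each 48 h level was raised to the dimmest signal marked well above background on its array before the fold was taken. Kel, the Kell blood group protease, fell at least 45.8-fold from levels of 1.32 to 2.34 (adjusted p 9.82e-08). Icam4, the Landsteiner-Wiener adhesion molecule, fell at least 14.1-fold from -0.36 to 0.55 (adjusted p 3.69e-05), and Add2, beta-adducin of the membrane skeleton, at least 16.7-fold (adjusted p 1.63e-08). For 12 of the 18 genes the lower group had only such a bound, and with these genes at their bounds the median change of the 18 was -2.93 in place of -5.02.

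The promoters of Rhd, Kel and Icam4 are shown because these blood group genes fell together with Gata1. Each holds the core of a GATA site close to an annotated start of its gene, and only starts with the core were shown. The stretches are the 120 bases before the start of the gene in the RefSeq annotation of GRCm38.p6, on the strand of the gene, at chr4:134864416-134864535 for Rhd (plus strand), chr6:41704326-41704445 for Kel (minus strand) and chr9:21029312-21029431 for Icam4 (plus strand). Capitals mark AGATAA or its reverse complement TTATCT, the only letters searched for on both strands.
Rhd: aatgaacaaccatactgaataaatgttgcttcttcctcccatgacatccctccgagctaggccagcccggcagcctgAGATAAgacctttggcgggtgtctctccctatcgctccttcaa
Kel: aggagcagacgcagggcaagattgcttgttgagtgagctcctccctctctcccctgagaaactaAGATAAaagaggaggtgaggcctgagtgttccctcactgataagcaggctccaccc
Icam4: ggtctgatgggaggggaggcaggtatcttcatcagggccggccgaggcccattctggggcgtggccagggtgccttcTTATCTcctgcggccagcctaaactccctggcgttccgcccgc
The core began 43 bases before the start of Rhd, 56 before that of Kel and 43 before that of Icam4. Of the 41 red cell genes that passed lower 26 matched a promoter in the RefSeq table, with 30 promoters in all, and 8 of these (26.7%) held the core within the 250 bases before the start. The share was no lower for the granulocyte genes that passed lower, with 7 of 24 promoters (29.2%). Of all 32851 promoters listed there, 9.99% held it. A match is a description of these letters and not a measured site.

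Globins fell in infants, and 5 of the 6 tested passed lower in adults as well. All 6 tested globin genes passed lower in infants at 48 h (median change -3.37). Hbq1b fell in infants only, by 3.09 on the log2 scale, with an age difference of -2.90. Hbb-bt, an adult beta globin, stood at 9.31, 8.82, 9.26 and 9.08 at 0 h and at 4.34, 4.25, 4.31 and 3.87 at 48 h, a 30.4-fold fall (log2 change -4.92 ± 0.30, adjusted p 6.4e-08). At 24 h, against the same 0 h arrays, Hbb-bt was lower by only 1.23 on the log2 scale, while Slc4a1, measured on all 4 arrays of 24 h, stood lower by 4.51. In adults Hbb-bt fell by 6.91 on the log2 scale, more than in infants (difference 1.99, adjusted p 0.00593). The globin genes are near copies of each other whose probes may share signal, so their changes are not independent.

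Heme synthesis and iron uptake moved in part only. Alas2, the first enzyme of heme synthesis in red cells, stood at 5.0, 4.73, 5.29 and 4.79 at 0 h and at 3.75, 3.48, 3.58 and 3.60 at 48 h, a 2.55-fold fall (adjusted p 0.000121). Slc25a37, the mitochondrial iron importer, fell by 2.70 on the log2 scale (adjusted p 1.39e-07) and Abcb10, its partner in the mitochondrial membrane, by 0.58 (adjusted p 0.000511). Among the enzymes of the pathway, which hepatocytes also use, Alad rose by 0.55 (adjusted p 0.000168), and Fech (0.19) and Urod (0.14) did not pass. Tfrc, the transferrin receptor that takes up iron, fell 6.06-fold from 2.65 to 3.33 at 0 h to 0.26 to 0.65 at 48 h (adjusted p 3.63e-06), and Epor, the erythropoietin receptor, fell 2.55-fold (adjusted p 1.82e-06). Tmem14c (0.48) and Hemgn (0.61) were the other members that passed higher.

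**Figure D2:**
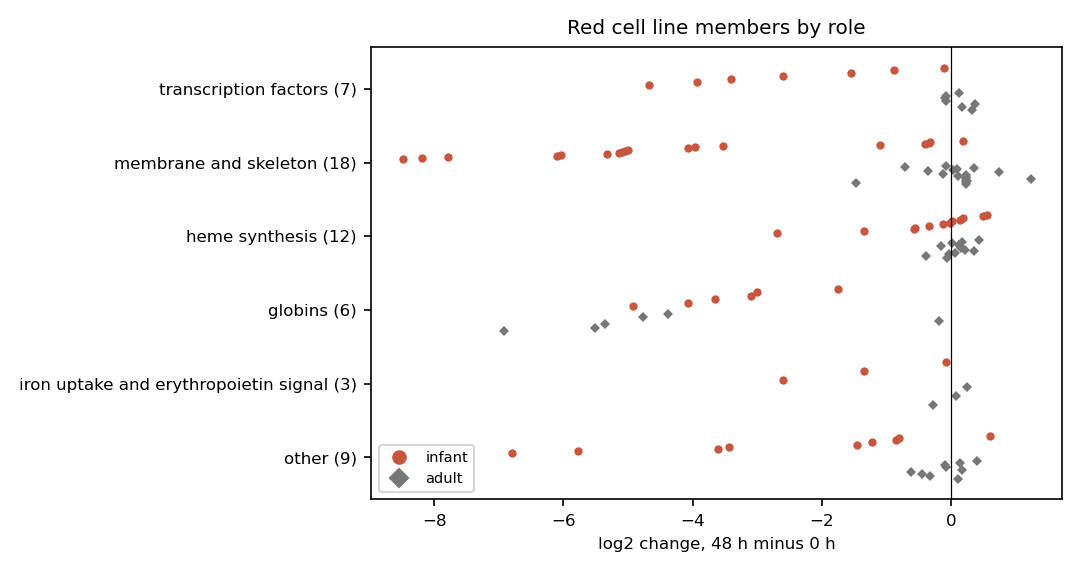
Log2 change at 48 h against 0 h of each tested red cell gene, grouped by role, in infants (circles) and adults (diamonds). Most infant membrane genes lie far below 0 while their adult median is 0.23; for 12 of the 18 the signal of the lower group was not well above background, so the depth of those points is not exact. The globins lie far below 0 in both ages, except Hbq1b, which does so in infants only.

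The fall of the red cell line differed between ages in most members. In adults 7 of the 55 genes passed lower at 48 h, 5 of them globins, against 1365 of all 23115 genes, and the median change was 0.07. The age difference of the 48 h change passed in 4321 genes (18.7%), the infant change being the lower in 1546 (6.69%) and the higher in 2775 (12%). The infant change was the higher in 64.2% of these genes, against 22.3% of 1517 after median scaling, 56.0% after quantile normalization and 56.9% after normexp background correction. Among the 55 red cell genes the infant change was the lower in 39 and the higher in 5, all globins. Of the 41 genes that fell in infants 13 were not well above background on any adult array of 0 h or 48 h, Gata1, Rhd and Kel among them, and for these the age difference rests on the infant change alone; 20 were well above background on all 8 adult arrays. Klf1, one of these 20, changed by -0.10 in adults (age difference -1.45, adjusted p 0.00116). The adult males of 48 h lay on another slide than those of 0 h, so part of the age difference crosses slides.

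Granulocyte genes fell in each role, from primary granules to receptors. Of 29 tested members 26 passed lower, against 10.9% of all genes, and none higher, with a median change of -3.0. Mpo, the myeloperoxidase of primary granules, stood at 4.94, 4.23, 4.84 and 5.15 at 0 h and at -1.0, -1.41, -0.10 and -0.05 at 48 h, a 43.05-fold fall (log2 change -5.43 ± 0.27, adjusted p 1.05e-08). Ctsg, the granule protease cathepsin G, fell 29.9-fold (adjusted p 1.61e-07). All 6 primary granule genes passed lower, as did 9 of 10 genes of later granules. Camp, the antimicrobial peptide cathelicidin of secondary granules, stood at 7.05, 6.55, 6.50 and 7.02 at 0 h and at 2.38, 2.45, 3.13 and 3.20 at 48 h, a 15.9-fold fall (log2 change -3.99 ± 0.16, adjusted p 1.89e-09). The groups did not overlap in either gene.

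Transcription factors and cytosolic proteins of granulocytes moved with the granules. Cebpe, which drives the making of secondary granules, fell 10.4-fold (adjusted p 8.86e-09), and Gfi1, a repressor needed for neutrophil formation, fell at least 9.45-fold (adjusted p 1.89e-09). S100a8, a subunit of the cytosolic complex calprotectin, fell 9.03-fold (adjusted p 2.34e-05) and Stfa1, a protease inhibitor of the stefin A family, 9.57-fold (adjusted p 5.18e-05). The members that did not pass were Lcn2, whose change was -1.65 (adjusted p 0.23) and which hepatocytes also make in inflammation, the receptor gene Csf3r (-0.37) and the peptide receptor gene Fpr1 (0.10). At 24 h, against the same 0 h arrays, Mpo was lower by 3.10 and Ctsg by 2.88, while Camp was lower by 1.53, S100a8 by 1.11 and Stfa1 by 1.20. In adults Mpo changed by -0.16 and was not well above background, and Camp, well above background on all 8 adult arrays, changed by -0.03. Among mast cell, basophil and eosinophil genes 7 of 9 passed lower, against 10.9% of all genes, and none higher. Mcpt8, a basophil protease measured on 1 of 4 arrays of 48 h, was lower by 3.43 ± 0.28 (adjusted p 1.29e-06).

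B cell genes fell, those of developing B cells among them. Of 21 B cell genes 17 passed lower, against 10.9% of all genes, and 1 higher. The median change was -3.31, or -2.65 with 4 members at their bounds and -1.62 after normexp background correction. All 7 genes of the pre-B cell receptor and of antibody gene recombination passed lower. Vpreb1, part of the surrogate light chain that pre-B cells display, stood at 2.81, 2.33, 2.51 and 2.43 at 0 h and at -1.46, -1.52, -1.90 and -1.80 at 48 h, an 18.3-fold fall (log2 change -4.19 ± 0.12, adjusted p 9.8e-11). No array of 48 h came within 3 units of the arrays of 0 h. Vpreb3 fell 27.8-fold (adjusted p 3.41e-09), Pou2af1, a B cell coactivator, 18.7-fold (adjusted p 3.58e-07), and Igll1, the other part of the surrogate light chain, at least 11.3-fold (adjusted p 5.35e-06). Cd79a, a signalling chain of the B cell receptor that was dim already at 0 h, fell at least 2.18-fold (adjusted p 0.00186). Ikzf3, which was well above background on 2 of 4 arrays at 0 h, was the member that passed higher (0.69, adjusted p 0.0131).

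The B cell values were already at this depth on the arrays of 24 h, where Vpreb1 was lower by 4.05 and Vpreb3 by 5.49 than on the same 0 h arrays. In adults, whose arrays showed Vpreb1 well above background, Vpreb1 changed by 0.65 (adjusted p 0.0043), and the age difference was -4.84 (adjusted p 1.57e-09). Ms4a1, which encodes CD20 of mature B cells, changed by -3.58 in infants, measured on 2 of 4 arrays at 48 h, and by -2.21 in adults. Of 9 tested genes of B cell receptors and signalling 7 passed lower in infants. The others, Cr2 (0.51) and Cd22 (-0.13), did not pass. Of 21 B cell genes 5 passed lower in adults and 2 higher, against 1365 and 1577 of all 23115 genes.

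T and NK cell genes were lower in part. Of 23 tested 15 passed lower, against 10.9% of all genes, and 1 higher, with a median change of -0.91 (-0.44 after normexp background correction). Cd3e, a chain of the T cell receptor complex, stood at 1.16, 0.62, 0.74 and 0.88 at 0 h and at 0.27, 0.42, 0.54 and 0.46 at 48 h, a 1.34-fold fall (adjusted p 0.0283) without overlap. The call of Cd3e was lost under 12 of 24 alternatives. Cd2, an adhesion molecule of T and NK cells, fell 4.83-fold (adjusted p 1.18e-05). Il7r, the interleukin 7 receptor that early B cells carry as well, fell at least 5.38-fold (adjusted p 4.97e-07). The NK receptor gene Klrd1 was lower by 1.16 (adjusted p 0.0004) and the granzyme gene Gzma by 1.00 (adjusted p 0.0019), whereas the perforin gene Prf1 did not pass (0.35). Zap70, a kinase of T cell receptor signalling, rose by 0.67 (adjusted p 0.00142).

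Among the remaining blood cells megakaryocytes, monocytes and part of the progenitor genes were lower. Of 16 megakaryocyte and platelet genes 14 passed lower, against 10.9% of all genes, and none higher (median -1.17). Pf4, platelet factor 4, stood at 5.31, 4.90, 5.17 and 5.07 at 0 h and at 3.71, 3.82, 4.16 and 3.88 at 48 h, a 2.33-fold fall (adjusted p 3.03e-05), and Gp9, a chain of the platelet receptor for von Willebrand factor, fell 3.81-fold (adjusted p 0.000179). Of 10 stem and progenitor genes 6 passed lower and 1, Cd34, higher by 0.50 (adjusted p 0.0187); endothelium also carries Cd34. Myb, needed for the growth of blood progenitors, fell at least 29.4-fold (adjusted p 4.94e-09). Kit, the stem cell factor receptor, which mast cells also carry, stood between 0.18 and 0.50 at 0 h and between 0.01 and 0.32 at 48 h, and its change of -0.17 did not pass (adjusted p 0.609).

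Most genes of Kupffer cells, the resident macrophages of the liver, did not pass, and genes of monocytes fell. Clec4f, which Kupffer cells make, stood at 4.77, 5.06, 4.95 and 4.91 at 0 h and at 5.14, 5.13, 5.05 and 4.90 at 48 h, a change of 0.13 ± 0.10 (adjusted p 0.319) with overlapping arrays. Of 7 Kupffer cell genes 1, Folr2, passed, higher by 0.29 (adjusted p 0.04), a call lost under 14 of 24 alternatives. Of 4 monocyte genes 3 passed lower: F13a1, the factor XIII A chain, fell 5.67-fold (adjusted p 1.62e-05), Ccr2, the receptor for monocyte exit from the marrow, was lower by 1.38 (2 of 4 arrays at 48 h), and S100a4 was lower by 0.72. Of 12 dendritic cell and MHC class II genes 5 passed lower, against 10.9% of all genes. They were led by Ccr7, which guides dendritic cells to lymph nodes (2.82-fold, adjusted p 6.67e-06).

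Genes of stellate cells and fibroblasts rose in part. Of 25 stellate cell and fibroblast genes 12 passed higher, against 24.7% of all genes, and none lower, with a median of 0.38. With quantile normalization 7 of the 25 passed, as with the 8 infant arrays only and without female 2 of 48 h, and within slide 2 it was 1. Over all 23115 genes 7572, 6609, 6582 and 839 passed in these 4 settings, in the same order. Of these 57.6%, 64.7%, 70.3% and 43.1% were higher. Mmp2, a collagenase of stellate cells, rose 2.79-fold (adjusted p 3.73e-05), from 0.55 to 1.40 at 0 h to 2.30 to 2.65 at 48 h. The pericyte gene Rgs5 rose 2.19-fold (adjusted p 0.000146), and Lrat, which stores vitamin A in stellate cells, 1.75-fold (adjusted p 5.74e-05). Of 21 endothelial genes 2 passed higher and 2 lower, against 24.7% and 10.9% of all genes. Clec4g of sinusoidal endothelium rose by 0.74 and the Wnt ligand gene Wnt2 fell by 0.97. Markers of pancreatic acinar cells moved as well, with 3 of 5 tested passing higher (Amy2a5 by 1.09, adjusted p 3.7e-05); the mean level of the 5 ran from -1.89 to -1.18 at 0 h and from -1.10 to -0.83 at 48 h, and its part in other results was not tested.

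Hepcidin rose more than any other tested gene. Hamp, the hepcidin gene, stood at 0.91, 1.28, -1.21 and -0.16 at 0 h and at 5.88, 5.32, 7.21 and 6.97 at 48 h. The 4 arrays of 48 h lay at least 4 units above those of 0 h, and the rise was 70.4-fold (log2 change 6.14 ± 0.28, adjusted p 5.11e-09). Hamp2, its neighbouring copy on chromosome 7, stood at 0.61, 0.64, -1.74 and -0.98 at 0 h and at 6.68, 6.36, 7.32 and 6.81 at 48 h, a 143-fold rise (log2 change 7.16 ± 0.46, adjusted p 1.34e-07). The females were below the males at 0 h in both genes and above them at 48 h. The rise of Hamp was 4.50 in males and 7.77 in females, and that of Hamp2 5.89 and 8.43; the sex difference did not pass in either (adjusted p 0.097 and 0.303), and sex lies with slide. Against the same 0 h arrays Hamp was higher by 3.81 and Hamp2 by 2.67 at 24 h. In adults Hamp changed by 1.11 and Hamp2 by 0.43, and the age difference passed for both (Hamp 5.02, adjusted p 3.74e-06; Hamp2 6.73, adjusted p 2e-05).

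The 250 bases before the start of each hepcidin gene are shown because the genes rose together and because BMP and interleukin 6 signals are known to reach Hamp through elements in this stretch. They come from the RefSeq annotation of GRCm38.p6, both on the minus strand, at chr7:30944030-30944279 for Hamp and chr7:30924182-30924431 for Hamp2. Capitals mark GGCGCC, the core of the BMP response element, and TTCNNNGAA, the STAT site; both motifs read alike on both strands.
Hamp: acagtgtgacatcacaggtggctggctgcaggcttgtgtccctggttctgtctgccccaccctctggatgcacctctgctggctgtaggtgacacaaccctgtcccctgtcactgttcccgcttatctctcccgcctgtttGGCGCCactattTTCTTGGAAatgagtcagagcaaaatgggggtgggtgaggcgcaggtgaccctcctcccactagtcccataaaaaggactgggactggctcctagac
Hamp2: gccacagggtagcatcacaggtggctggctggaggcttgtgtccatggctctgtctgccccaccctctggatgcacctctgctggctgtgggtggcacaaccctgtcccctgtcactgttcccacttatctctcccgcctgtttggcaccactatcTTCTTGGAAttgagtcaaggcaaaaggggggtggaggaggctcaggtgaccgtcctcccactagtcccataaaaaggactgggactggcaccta
The stretches were identical in 227 of 247 aligned bases (91.9%). In Hamp the BMP core began 109 bases before the start and the STAT site 97; Hamp2 held the STAT site at 94 bases and no GGCGCC in this window. Of all 32851 promoters 9.59% held GGCGCC and 7.02% the STAT site within the 250 bases before the start. Of the 16 genes of the iron list that passed higher 11 matched, and 3 of their 13 promoters held GGCGCC. With genes this alike, signal shared between the probes of Hamp and Hamp2 was not tested.

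Genes of the BMP arm that feeds hepcidin rose in part. Of 18 genes of the BMP and SMAD arm 10 passed higher, against 24.7% of all genes, and none lower. The median change was 0.31, against 0.11 over all genes. Bmp6, the ligand that liver endothelium releases when iron is high, stood at -5.04, -3.02, -2.65 and -3.59 at 0 h, when 2 of 4 arrays measured it, and at -1.15, -0.90, -1.69 and -1.34 at 48 h, a 4.95-fold rise (adjusted p 0.000213). Atoh8, a transcription factor that follows BMP6 signalling in hepatocytes, rose 3.43-fold without overlap, from -2.12 to -1.25 to -0.14 to 0.32 (adjusted p 1.82e-07). Id1, a direct SMAD target, stood at 1.72, 1.84, 1.45 and 1.55 at 0 h and at 2.34, 2.33, 2.58 and 2.35 at 48 h (log2 change 0.76 ± 0.22, adjusted p 0.0175). Smad7, the inhibitor that the pathway induces against itself, was higher on each array of 48 h than on any of 0 h, but its change of 0.34 did not pass (adjusted p 0.0911). The age difference passed with the infant change the higher in 5 of the 18 genes, Bmp6 and Atoh8 among them, against 12% of all genes. The infant change was the lower in 2, Id2 (difference -0.65) and Id3 (-1.29), against 6.69% of all genes. For Id1 the age difference of -0.80 did not pass. None of the 3 genes of the interleukin 6 arm passed; Il6ra changed by 0.18 (adjusted p 0.373) and Stat3 by -0.12 (adjusted p 0.52).

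Genes that are known to lower hepcidin or to move iron gave a mixed picture. Erythroferrone, Erfe, the red cell hormone that lowers hepcidin, was not bright enough to be tested. Gdf15 and Twsg1, proposed as further suppressors from red cell precursors, rose 2.55-fold (adjusted p 0.0115) and 1.47-fold (adjusted p 4.09e-05); Gdf15 is also a p53 target. Slc40a1, the iron exporter ferroportin that hepcidin removes from the cell surface, rose by 0.44 (adjusted p 0.000671), and the ferritin heavy chain Fth1 by 0.26 (adjusted p 0.0099). The heme oxygenase gene Hmox1 did not pass (0.08, adjusted p 0.619). Over the 37 tested genes of the iron list 16 passed higher, against 24.7% of all genes, and Tfrc was the 1 that passed lower. After median scaling 7 passed higher, when 3797 of all 23115 genes passed and 57.2% of these were higher.

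**Figure D3:**
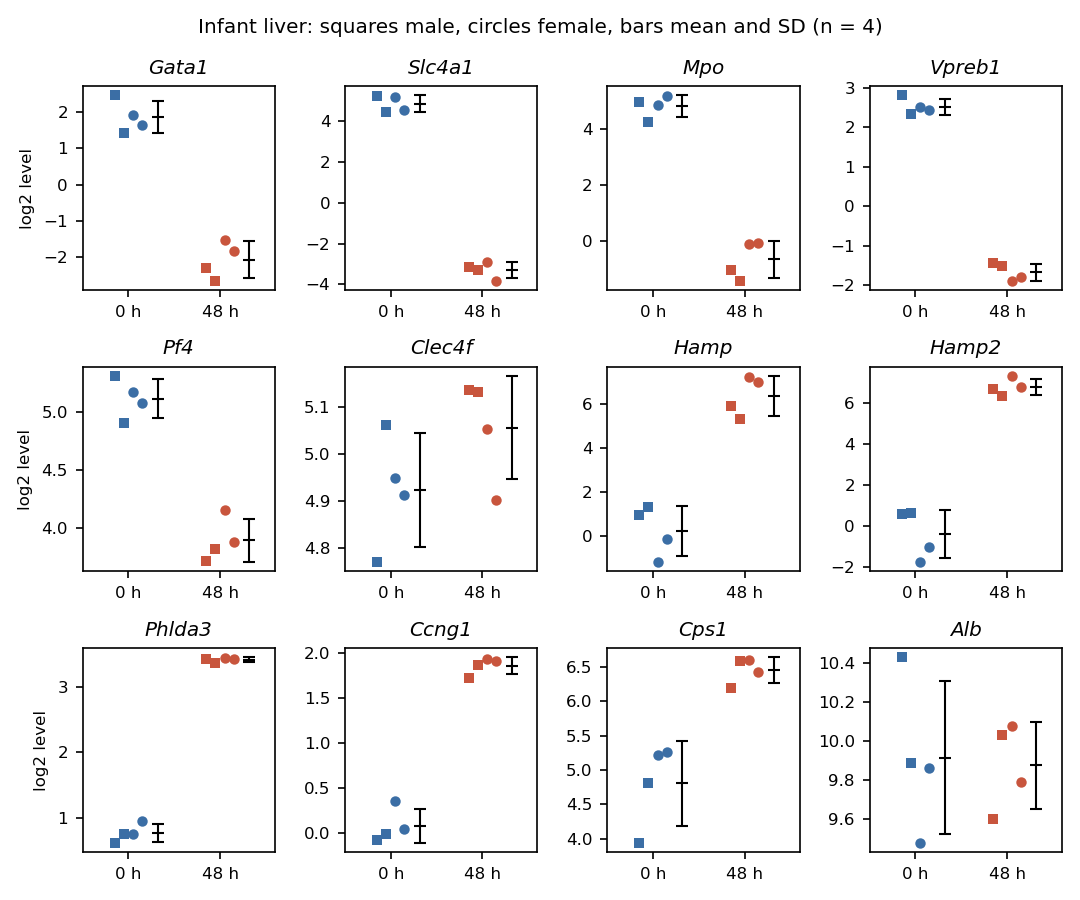
Log2 level (array's 75th percentile at 0) of 12 genes on each infant array of 0 h and 48 h, with the mean of each group as a bar. Gata1, Slc4a1, Mpo, Vpreb1 and Pf4 lie lower at 48 h and Hamp, Hamp2, Phlda3, Ccng1 and Cps1 higher, without overlap, while Clec4f and Alb overlap.

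Targets of p53 were higher in most roles. Of 45 tested 28 passed higher, against 24.7% of all genes, and 4 lower, with a median change of 0.48. Of 11 genes of cell cycle arrest 4 passed higher and 1 lower, with a median of -0.13. Ccng1, cyclin G1, stood at -0.07, -0.00, 0.36 and 0.04 at 0 h and at 1.73, 1.87, 1.93 and 1.91 at 48 h, a 3.43-fold rise (log2 change 1.78 ± 0.12, adjusted p 2.07e-07). Zmat3, an RNA-binding protein that acts in growth arrest, stood at -0.75, -0.77, -0.92 and -0.81 at 0 h and at 0.92, 1.01, 1.00 and 0.99 at 48 h, a 3.47-fold rise (adjusted p 5.11e-09). Both separated the groups by more than 1 unit, with a narrow spread within each. Cdkn1a, the cyclin-dependent kinase inhibitor p21, stood at 1.45, 1.29, 1.30 and 2.51 at 0 h and at 2.97, 3.44, 2.83 and 2.86 at 48 h, a 2.61-fold rise (log2 change 1.39 ± 0.32, adjusted p 0.00391). In Cdkn1a a female array of 0 h lay above the other 3.

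Cell death genes made up much of the list. Of 12 tested 8 passed higher and 1 lower. Phlda3, which blocks the survival kinase AKT, stood at 0.62, 0.76, 0.76 and 0.95 at 0 h and at 3.43, 3.36, 3.43 and 3.43 at 48 h, a 6.23-fold rise (adjusted p 5.27e-05) that was the largest of the list. Aen, a nuclease of apoptosis, rose 2.59-fold (adjusted p 3.02e-06), Tnfrsf10b, a death receptor, 2.44-fold (adjusted p 0.000349), and Bax, which opens the mitochondrial membrane, 2.0-fold (log2 change 1.00 ± 0.12, adjusted p 3.3e-05). The BH3 gene Bbc3 was higher by 0.80 (adjusted p 0.00424) and Pmaip1, another, changed by -0.25 (adjusted p 0.29). Of 22 genes of the apoptosis machinery, which share Bax and Bbc3 with the p53 list, 4 passed higher and none lower, a share below the 24.7% of all genes.

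Feedback, repair and metabolic targets varied. Mdm2, the ligase that degrades p53, was higher by 0.29 ± 0.09 only (adjusted p 0.0205), and the phosphatase gene Ppm1d did not pass (0.08). Polk, a polymerase that copies past damage, rose 2.04-fold (adjusted p 6.67e-06), and Mgmt, which removes alkyl groups from DNA, 1.88-fold (adjusted p 1.18e-05). Of 14 metabolic and other targets 11 passed higher, among them Ephx1, an epoxide hydrolase (1.86-fold, adjusted p 2.44e-05). The 4 that fell were Ptp4a3 (by 0.59), Sesn2 (by 0.40), Pidd1 (by 0.35) and Ddb2 (by 0.19). Of 24 alternatives the call of Mdm2 was lost under 12 (highest adjusted p 0.299), that of Sesn2 under 15, that of Pidd1 under 13 and that of Ddb2 under 16. Among 40 DNA repair genes outside this list 10 passed higher and 5 lower, with a median of 0.04, shares near the 24.7% and 10.9% of all genes. Xrcc5, which encodes the Ku80 subunit that holds broken ends, rose by 0.52 (adjusted p 8.28e-05).

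The age difference went either way among p53 targets. Zmat3 changed by 0.49 in adults, less than in infants (difference 1.30, adjusted p 1.05e-05), and so did Ccng1 with 1.06 (difference 0.72, adjusted p 0.0115). For Phlda3, at 3.12 in adults, the difference of -0.48 did not pass (adjusted p 0.504). Mdm2 was higher by 0.69 in adults (difference -0.40, adjusted p 0.044, lost without any 1 of 7 of the 8 infant arrays). After median scaling the age difference of Ccng1 did not pass either (0.54, adjusted p 0.265). The probes of Cdkn1a disagreed on age: that used here gave an age difference of -2.05 and the other 1.52, so no age difference is stated for this gene. Over the 45 tested targets the infant change was the lower in 7, with Cdkn1a counted there by the probe used. It was the higher in 7. Over all genes these shares were 6.69% and 12%.

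Stretches of the promoters of Cdkn1a and Ccng1 are shown as examples of p53 targets that rose. They lie in GRCm38.p6 (RefSeq) at chr17:29090882-29090961, plus strand, for Cdkn1a, and at chr11:40755427-40755506, minus strand, for Ccng1. Capitals mark matches to the p53 decamer consensus, searched on both strands.
Cdkn1a: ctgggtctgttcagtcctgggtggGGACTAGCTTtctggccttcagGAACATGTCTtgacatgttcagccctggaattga
Ccng1: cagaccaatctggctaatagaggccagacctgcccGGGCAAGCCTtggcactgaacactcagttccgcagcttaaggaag
The matches began 73 and 51 bases before an annotated start of Cdkn1a and 185 bases before one of Ccng1. A gene can have several annotated starts, and only starts with a match were shown. Of the 28 p53 targets that passed higher 24 matched the RefSeq table, and 8 of their 36 promoters (22.2%) held a decamer, against 7.13% of all 32851 promoters. Lists that fell had shares of 20.8% (5 of 24 promoters of granulocyte genes) and 20% (3 of 15 of B cell genes).

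Few mitotic genes passed in infants at 48 h, and most fell in adults. Of 31 genes of G2 and mitosis 2 passed higher and 3 lower in infants, against 24.7% and 10.9% of all genes, with a median of 0.17. Birc5, survivin, stood at 5.38, 4.77, 5.15 and 5.23 at 0 h and at 5.67, 5.79, 5.73 and 5.62 at 48 h (log2 change 0.57 ± 0.14, adjusted p 0.00577), and the kinesin gene Kif20a was higher by 0.82 (adjusted p 0.0113). Mki67, the proliferation marker, changed by -0.65 and did not pass (adjusted p 0.0566). Mybl2, a transcription factor of dividing cells, fell 3.72-fold (adjusted p 4.44e-06). In adults 23 of the 31 passed lower, against 1365 of all 23115 genes, with a median of -1.12. There Birc5 changed by -1.42 (age difference 2.0, adjusted p 2.35e-05) and Mki67 by -2.02 (age difference 1.36, adjusted p 0.0175). The infant change was the higher in 20 of 31, against 12% of all genes, and the lower in 1.

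In the G1 and S list of 26 genes 3 passed higher and 1 lower, shares below the 24.7% and 10.9% of all genes. Ccnd1, cyclin D1, rose 2.22-fold (adjusted p 0.00187) and Ccnd2 by 0.57 (adjusted p 0.0033), while E2f2, a cell cycle factor known for its part in red cell formation, was lower by 2.32 ± 0.25 (adjusted p 1.68e-05). Among inhibitors other than Cdkn1a, Cdkn2d fell by 0.88 (adjusted p 9.25e-06) and Cdkn1b by 0.25 (adjusted p 0.00436).

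**Figure D4:**
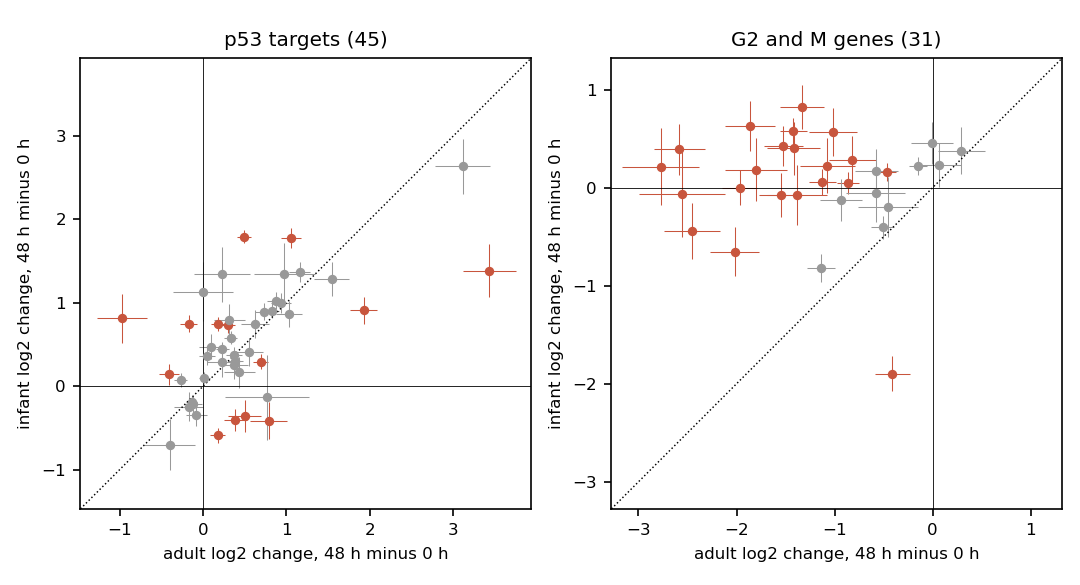
Infant log2 change (vertical axis) against adult log2 change (horizontal axis) at 48 h for tested members of the p53 list and of the G2 and mitosis list. Bars are standard errors and the dotted line marks equal changes. Members with an age difference at an adjusted p under 0.05 are in orange. Most mitotic genes lie above the line, 20 of 31 with an infant change that was higher.

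Interferon-stimulated genes were higher. Of 40 tested 26 passed higher, against 24.7% of all genes, and 1 lower, with a median of 0.54. Bst2, tetherin, which holds viruses at the cell surface, stood at 4.13, 4.38, 4.33 and 4.24 at 0 h and at 5.19, 5.20, 5.41 and 5.19 at 48 h, a 1.97-fold rise without overlap (adjusted p 1.25e-06). The antiviral gene Ifit3 rose 1.95-fold (adjusted p 0.0144) and the GTPase gene Igtp 1.72-fold (adjusted p 0.00688). Rsad2, viperin, went the other way, from 1.54 to 2.80 at 0 h to 0.19 to 0.88 at 48 h (3.07-fold lower, adjusted p 0.000179). In adults 14 of the 40 passed higher, against 1577 of all 23115 genes. The age difference passed in 3, against 18.7% of all genes. Under other scaling fewer of the 40 passed higher, 16 after median scaling and 19 after quantile normalization. Over all genes 3797 then passed after median scaling, 57.2% of them higher. After quantile normalization 7572 of all genes passed, 57.6% of them higher.

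Plasma proteins of defence rose in part. Of 29 complement and clotting genes 20 passed higher, against 24.7% of all genes, and none lower (median 0.37). Among them were C9, the pore-forming complement protein (1.80-fold, adjusted p 0.000348), and Pros1, anticoagulant protein S (1.79-fold, adjusted p 1.65e-05). After median scaling 9 of the 29 passed higher, when 3797 of all 23115 genes passed and 57.2% of these were higher. Of 26 acute phase genes 7 passed higher, a share near the 24.7% of all genes, led by Orm2, an orosomucoid that 2 of 4 arrays measured at 0 h (6.39-fold, adjusted p 0.0002), and Serpina3k, a protease inhibitor (4.53-fold, adjusted p 1.06e-05). Of 19 cytokine and chemokine genes 3 passed higher and 2 lower, against 24.7% and 10.9% of all genes. Ccl7 was higher by 1.25, and the inflammatory cytokine gene Il1b was lower by 1.6 (adjusted p 0.0039).

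Other stress programmes moved in part. Of 16 NRF2 targets, the antioxidant response, 10 passed higher, against 24.7% of all genes, and none lower (median 0.50). Gstm3, a glutathione transferase, rose 2.62-fold (adjusted p 3.19e-05) and Nqo1, a quinone reductase, 1.80-fold (adjusted p 0.000809). Of 19 genes of the integrated stress response 4 passed higher and 3 lower, shares near the 24.7% and 10.9% of all genes. Chac1, which breaks down glutathione, stood at -3.57, -3.78, -2.36 and -2.46 at 0 h, measured on 2 of 4 arrays, and at -1.85, -0.80, -0.36 and 0.39 at 48 h (5.23-fold, adjusted p 3.96e-05), whereas Ppp1r15a, the phosphatase subunit that ends the response, fell 2.94-fold (adjusted p 7.18e-07). At 24 h, against the same 0 h arrays, Chac1 stood at a change of -0.01. Of 9 heat shock genes 4 and of 16 genes of the unfolded protein response 3 passed higher, shares that are near the background for the latter.

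Genes of hepatocyte function rose in infants over the 48 h. All 6 urea cycle genes and 12 of 15 genes of amino acid breakdown passed higher, against 24.7% of all genes, and none of the 21 lower (median 0.72). Cps1, the first enzyme of the urea cycle, stood at 3.94, 4.81, 5.21 and 5.27 at 0 h and at 6.20, 6.59, 6.60 and 6.42 at 48 h, a 3.13-fold rise (log2 change 1.64 ± 0.16, adjusted p 7.34e-06). Arg1, arginase, rose 2.02-fold (adjusted p 9.93e-05) and Hgd, of tyrosine breakdown, 2.08-fold (adjusted p 6.82e-06). In adults none of the 21 passed. The infant change was the higher in 17, against 12% of all genes, and for Cps1 the age difference was 1.44 (adjusted p 0.00107). After median scaling and after quantile normalization 17 of 21 passed higher. Over all 23115 genes 3797 and 7572 passed in these settings, 57.2% and 57.6% of them higher.

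Drug and bile acid metabolism rose as well. Of 41 drug metabolism genes 25 passed higher, against 24.7% of all genes, and 1 lower. Those higher held all 9 conjugation genes and 10 of 23 cytochromes P450. Cyp2c38, a cytochrome P450, stood at 0.63, 2.04, 2.18 and 1.96 at 0 h and at 4.57, 4.73, 4.63 and 4.69 at 48 h, a 7.73-fold rise (adjusted p 9.6e-07). Ugt2a3, which attaches glucuronic acid, rose 2.48-fold (adjusted p 1.45e-05) and Slco1a4, an organic anion importer, 3.51-fold (adjusted p 2.24e-05). Of 17 bile acid genes 10 passed higher, against 24.7% of all genes, and none lower. Cyp7a1, the rate-limiting enzyme of bile acid synthesis, stood at 1.43, 1.65, 1.27 and 0.38 at 0 h and at 2.54, 2.73, 2.89 and 2.98 at 48 h, a 3.04-fold rise (log2 change 1.6 ± 0.40, adjusted p 0.0068).

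Lipid and sugar genes divided between synthesis and breakdown. Of 20 genes of fatty acid synthesis 11 passed higher, against 24.7% of all genes, and none lower. Scd1, the stearoyl-CoA desaturase, rose 5.47-fold (adjusted p 9.79e-07), from -0.80 to -0.47 at 0 h to 1.65 to 1.94 at 48 h, and Thrsp, a lipogenic regulator, 2.65-fold (adjusted p 0.000769). Of 29 genes of fatty acid oxidation 7 passed lower, against 10.9% of all genes, and 1, Ppara, higher by 0.19 (adjusted p 0.034). The call of Ppara was lost under 18 of 24 alternatives, and 1 of its 2 other probes had the opposite sign. With quantile normalization 11 of the 29 passed lower and none higher, when 7572 of all 23115 genes passed and 57.6% of these were higher. Pdk4, which spares glucose in fasting, fell 2.17-fold (adjusted p 0.00834) and the PPARA target gene Cyp4a10 2.53-fold (adjusted p 0.00166). Of 23 cholesterol synthesis genes 1 passed higher and 3 lower, against 24.7% and 10.9% of all genes.

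Fetal and growth genes did not move as 1 group. Afp, alpha-fetoprotein, changed by -0.29 (adjusted p 0.493), Igf2 by -0.50 (adjusted p 0.255) and the imprinted RNA H19 by 0.36 (adjusted p 0.635). Of 13 imprinted genes 2 passed higher and 4 lower, against 24.7% and 10.9% of all genes. Those that fell were led by Peg3 (by 1.36, adjusted p 0.0126) and Grb10, an inhibitor of insulin signalling (2.38-fold lower, adjusted p 0.000779). Igf1, the growth hormone-driven insulin-like growth factor, stood at 5.57, 5.47, 5.61 and 5.64 at 0 h and at 6.33, 6.53, 6.64 and 6.47 at 48 h, a 1.89-fold rise (adjusted p 7.96e-07), and changed by 0.02 in adults (age difference 0.90, adjusted p 8.45e-05). Igfals, which carries it in plasma, rose 2.25-fold (adjusted p 5.02e-05), and Dio1, a thyroid hormone deiodinase, 2.15-fold (adjusted p 3.16e-06).

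**Figure D5:**
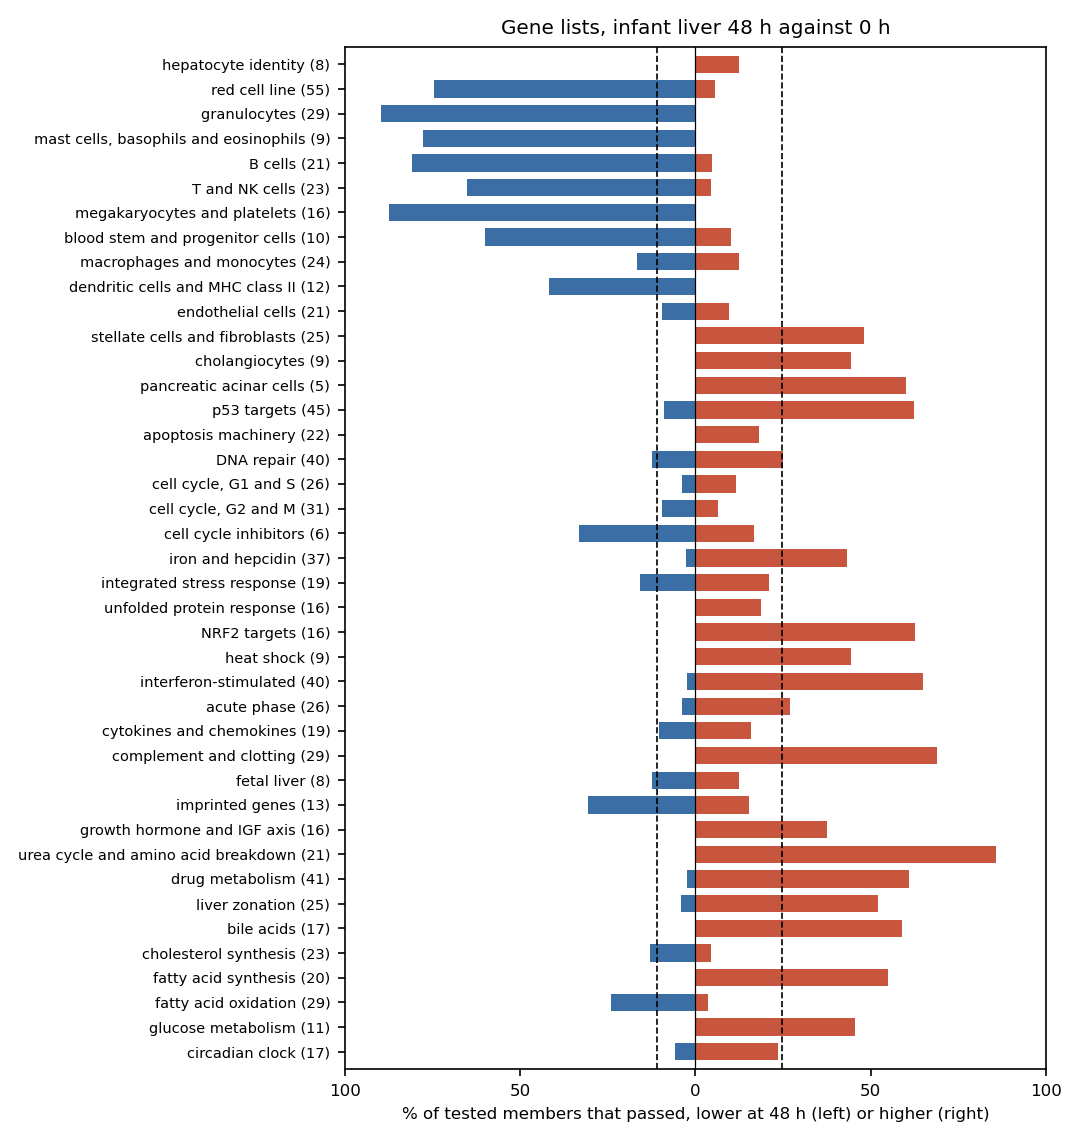
Percentage of the tested members of each list that passed higher (to the right) or lower (to the left) in infant liver at 48 h, with dashed lines at 24.7% and 10.9% of all genes. Blood cell lists extend to the left and hepatocyte function, p53 and interferon lists to the right.

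Genes with wide age differences drew in part on the groups above, while Ntrk2, Vmn2r10 and Shcbp1 belonged to none of the lists. Among passing genes with non-overlapping changes, those picked by fitted size were Hamp2, Hamp, Vmn2r10, Ntrk2, Prc1 and Shcbp1 with a higher infant change and Rhd, Kel, Trim10, Slc4a1, Icam4 and Cldn13 with a lower one. Only Hamp2, Hamp and Ntrk2 were well above background on all arrays of 0 h and 48 h in both ages, and Slc4a1 on part of them; for the others 1 or more groups were not, so their fitted differences have no order. After normexp background correction the age difference was 0.60 for Vmn2r10, 1.12 for Prc1, 1.11 for Shcbp1 and -4.71 for Rhd. Ntrk2, a neurotrophin receptor, rose 6.10-fold in infants (adjusted p 1.66e-05), from 0.46 to 0.96 at 0 h to 3.19 to 3.41 at 48 h, and changed by -0.72 in adults. Prc1 and Shcbp1, both of cytokinesis, changed by 0.21 and 0.69 in infants, where neither passed, and by -2.77 and -2.06 in adults, where neither was well above background on any array of 48 h. Vmn2r10, a vomeronasal receptor gene, was dim throughout and not well above background on any infant array of 0 h. The red cell genes Trim10 and Cldn13 fell at least 22.4-fold and 17.8-fold in infants.

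Males and females were compared in their change from 0 h to 48 h. With limma 1 of 23115 genes (0.00433%) passed for a sex difference of the infant 48 h change, while 2847 had an unadjusted p under 0.05. The gene was Dzank1, which was dim: it stood at -5.33 and -5.34 in males and -3.56 and -3.80 in females at 0 h, and at -3.11 and -3.17 in males and -5.10 and -4.06 in females at 48 h (difference 3.09, adjusted p 0.0351). It was well above background on 1 array of 0 h and 2 of 48 h. Since the sexes lay on separate slides, this difference cannot be told apart from one between slides.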

How the data were processed

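RNA from 24 mouse livers was hybridised to 1-colour Agilent arrays, 200 ng per sample per the labels' protocols. Scans were read with Agilent Feature Extraction, version 11.5.1 per the submitters' processing notes and 10.5.1.1 per the file headers, for an array designed on build mm9; how the authors normalised between arrays is not given in the sources used here. The deposited scanner values are intensities: processed signals that were background-subtracted and detrended within each array, per the file headers, beside 0 or 1 marks per spot. The deposited log2 table of the authors holds 31701 probes; its arrays correlated at 0.976 to 0.99 with the scanner values after gene centring, its array medians ran from -0.162 to 0.18, and each probe is centred at a median of 0. Its scaling step stays unknown, and it served as an alternative.

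Control spots were left out, which kept 59305 spots of 55681 probes; 94 probes had no usable spot on an array and no spot was saturated. Log2 processed signals were shifted so that the 75th percentile of each array was 0. A probe entered if at least 4 of the 24 arrays marked it well above background, and each gene was read from its brightest probe. Of 29796 probes named by a RefSeq-style accession, 28026 (94.1%) matched the RefSeq table of GRCm38.p6, and 27655 others kept the name in the files; 23115 genes were tested, 14951 of them under a symbol. limma 3.58.1 in R 4.3.3 fitted 12 cell means of age, time and sex with 2 arrays each, leaving 12 residual degrees of freedom (prior 1.88), and p-values were adjusted by Benjamini-Hochberg over all genes at 0.05. The number of arrays limits the precision. The scripts were tested on simulated data.

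The 42 lists (907 distinct genes, 846 tested), the rule and the members were chosen with earlier results of these data known. Genes were named by rule: a set of fixed genes, the 12 largest rises and falls among passing genes without overlap between groups, up to 3 passing and 2 other members of each role in a list, up to 4 members against the direction of their list, and up to 6 genes each way for the age and sex differences. A gene was given only a bound where no array of a group was well above background; the bound is the mean of the brighter group minus that of the dimmer group, each array of which was raised to its lowest signal well above background. Alternatives were median scaling, quantile normalization, normexp background correction with offset 50 (limma), the deposited table, other probe filters, the mean of all probes of a gene, smaller sets of arrays, sex left out, slide as a term or split, a replicate block, an intensity trend and leaving out each of the 8 infant arrays of 0 h and 48 h in turn. Figures were drawn with matplotlib 3.10.9.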

Additional observations from a re-analysis of the deposited data

Results flagged for a closer look

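In 13 of the 290 groups of 4 arrays examined (4.48%), over 145 genes, 1 array stood apart from the other 3 by more than the 95% critical value of Dixon's test; chance gives about 1 in 20 groups. At 0 h the array of male 1 stood apart in 6 genes. It was the high array in Cd2 (0.73, the other 3 at -0.04 to 0.09). It was the low array in Cyp2c38 (0.63, against 1.96 to 2.18), Cyp4a10 (6.32, against 7.08 to 7.12), Ephx1 (6.28, against 6.67 to 6.74), Pros1 (1.95, against 2.19 to 2.22) and Twsg1 (1.31, against 1.58 to 1.63). Also at 0 h, female 2 was high in Cdkn1a (2.51, against 1.29 to 1.45) and male 2 low in Kif20a (1.54, against 1.75 to 1.77). At 48 h female 1 was high in Bst2 (5.41, against 5.19 to 5.20) and in Id1 (2.58, against 2.33 to 2.34), and female 2 was low in Bax (3.59, against 3.70 to 3.71). Male 2 was low at 48 h in Phlda3 (3.36, against 3.43 on the others) and in Vpreb3 (-1.68, against -0.97 to -0.88).

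The 48 h change differed between infants and adults in 4321 genes by the contrast of both changes in limma, and 22 genes of the report are given here. Given as the infant change minus the adult change on the log2 scale, the differences above 0 of genes measured on at least 1 array of each time in both ages were 6.73 for Hamp2, 5.02 for Hamp, 3.33 for Ntrk2, 2.0 for Birc5, 1.99 for Hbb-bt, 1.44 for Cps1, 1.36 for Mki67, 1.30 for Zmat3, 0.90 for Igf1 and 0.72 for Ccng1. Those below 0 were -6.72 for Slc4a1, -4.84 for Vpreb1, -1.45 for Klf1 and -0.40 for Mdm2. For the remaining genes at least 1 group of 0 h or 48 h was not well above background, so the fitted differences are not exact and have no order: 3.53 for Vmn2r10, 2.99 for Prc1, 2.75 for Shcbp1, -8.72 for Rhd, -8.01 for Kel, -6.91 for Trim10, -6.55 for Icam4 and -6.34 for Cldn13. The infant falls of the last 5 are known only as bounds, at least 85.1-fold for Rhd, 45.8-fold for Kel, 22.4-fold for Trim10, 14.1-fold for Icam4 and 17.8-fold for Cldn13. Between the sexes 1 gene, Dzank1, differed in its infant 48 h change, by 3.09 (male change minus female change).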

How the results depend on the processing

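The infant 48 h comparison kept the sign of 98.2% to 100% of its 8223 passing genes under each alternative run, but the number that passed moved. For infant 48 h against 0 h it was 3797 after median scaling, 4665 with sex left out, 5318 within slide 1, males, and 839 within slide 2, females. It was 6007 to 8182 with each of the 8 infant arrays of 0 h and 48 h left out in turn. For the age difference of the 48 h change, 4321 genes passed in the fit reported, 1517 after median scaling and 1244 with sex left out. With slide as a random block (consensus correlation 0.241) 2378 passed, and with each of these infant arrays left out 3033 to 4606. No adult array was left out. The replicate block gave 6330 genes for infant 48 h against 0 h and 2052 for the age difference; arrays with the same replicate label deviated together at 0.249 for male 1, -0.025 for male 2, 0.105 for female 1 and 0.151 for female 2, so the labels were not taken as pairs. For the sex difference of the infant 48 h change, 1 gene passed; 0 passed after quantile normalization, in the deposited table, with the filter on all 4 arrays of a group, with no filter on dim probes, and with 12 or 8 infant arrays only, while 7 passed after normexp background correction, 6 with an intensity trend in the prior and 1 to 133 with each array left out. Of 169 gene results 88 kept direction and call under all alternatives run. Those that turned in sign, mostly genes that had not passed, were Alb (0.265 within slide 2, females, and -0.173 to 0.096 with each array left out), Clec4f (-0.045, quantile normalization), Fech (-0.001 with quantile normalization and within slide 2), Hmox1 (-0.081, quantile normalization, and -0.022 to 0.19 with each array left out), Igf2 (0.12, within slide 2), Ppm1d (-0.10, within slide 2), Urod (-0.064, quantile normalization) and Zfpm1 (0.024, within slide 1); Dzank1, which had passed, was -0.90 within slide 2. The cause was not tested. Probes that were dim on all arrays of a group limit the folds to bounds.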
